A study of Mus musculus with 105 samples.

Results

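Ribosome footprints of single wild-type mouse oocytes were compared between metaphase II (MII), the stage at which the ovulated egg waits for sperm, and the full-grown oocyte (FGO), which has stored its mRNA and has not yet resumed meiosis. The comparison used 20 MII oocytes and 18 FGO out of 105 samples in the study, each oocyte being 1 library. Females were C57BL/6 of 8 or 5 weeks given PMSG (5 IU) and hCG (5 IU), gonadotropins that drive follicle growth and ovulation, and the labels do not say which age supplied which oocyte. Oocytes were lysed with cycloheximide, which holds ribosomes on mRNA, unprotected RNA was removed with RNase I, and ribosomes were spun through a sucrose cushion. Of 20756 genes in the footprint table, 10068 averaged 1 FPKM or more (reads per kilobase of gene, scaled to library size) in either stage and were kept, of which 6360 did so in both stages, 1376 in MII only and 2332 in FGO only. Other libraries served as separate readouts of the same genes: poly(A) tail lengths of wild-type MII oocytes and FGO (1 library each), and mRNA of MII oocytes labelled Btg4 KO and Btg4 Het (knockout and heterozygous, 2 libraries each), with their footprints (3 libraries each).

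Transcription is off in the full-grown oocyte and stays off until after fertilization, so maturation works with stored mRNA. Some stored mRNAs carry short poly(A) tails and are translated when the tail is lengthened by cytoplasmic polyadenylation. Others are translated during growth and are then deadenylated by the CCR4-NOT complex, to which the adaptor BTG4 brings its targets, and are destroyed. Footprints show which mRNAs carry ribosomes at a stage and so read both processes together.

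The labels name no animals, so the oocytes of a stage count as 1 sample and no test was made between stages. Each gene is described by its FPKM in the oocytes, by the log2 of (mean MII FPKM + 1) over (mean FGO FPKM + 1), called the log2 ratio, and by the share of the 360 pairs of an MII oocyte and an FGO that were in order. A gene was called gained at a log2 ratio of 2 or more with MII above FGO in at least 90% of pairs, and lost at a log2 ratio of -2 or less with FGO above MII in at least 90% of pairs. These thresholds choose the genes, so their footprint values are a description.

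Reads recovered from the FPKM, which give relative depth only, ran from 17339 to 86249 per MII oocyte and from 35275 to 317248 per FGO, and summed FPKM from 144559 to 598538 per MII oocyte and from 76465 to 677515 per FGO. MII oocytes 2 and 4 stood apart from the other 18 towards FGO, so lost genes are also given without them. Leaving out oocytes chosen for lying towards FGO tends by itself to make losses larger. The values without MII oocytes 2 and 4 are therefore a description and add no support to the loss calls. Oocyte markers were present in both stages, with a summed level of 4677 to 19276 FPKM in MII oocytes and 2025 to 32618 FPKM in FGO. Follicle cell markers summed to 81.7 to 249 FPKM in MII oocytes, with Fshr, Fst, Has2, Krt8 and Tnfaip6 of 24 at 0 in all of them, and to 3.95 to 179.9 FPKM in FGO, with Has2 at 0 in all. Of 15 follicle markers that reached 1 FPKM, 1 was gained, Serpine2, a protease inhibitor that had 34.5 to 210.3 FPKM in MII oocytes (median 117) and 0 to 15.2 FPKM in FGO (median 3.29). Blood and immune markers summed to 0 to 214 FPKM in MII oocytes and 0 to 1275 FPKM in FGO, no hemoglobin gene was above 0 in 19 MII oocytes and 9 FGO, and none of 16 such markers was gained or lost. What part such RNA had in any result was not tested.

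Gained genes numbered 734 of 10068, or 7.29%, and lost genes 307, or 3.05%. A gained gene had a median of 62.6 FPKM in MII oocytes and 4.34 FPKM in FGO, and a lost gene 6.27 FPKM in MII oocytes and 52.6 FPKM in FGO. The median log2 ratio was 3.20 over gained genes and -2.64 over lost genes, or -3.40 over the same lost genes without MII oocytes 2 and 4. Among gained genes 305 had a log2 ratio of 2 to 3, 234 of 3 to 4, 115 of 4 to 5, 52 of 5 to 6 and 28 above that, while among lost genes 233 lay between -2 and -3, 64 between -3 and -4 and the remainder below. MII lay above FGO in every pair for 192 gained genes. No lost gene had every pair in order, and 28 did without MII oocytes 2 and 4.

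**Figure D1:**
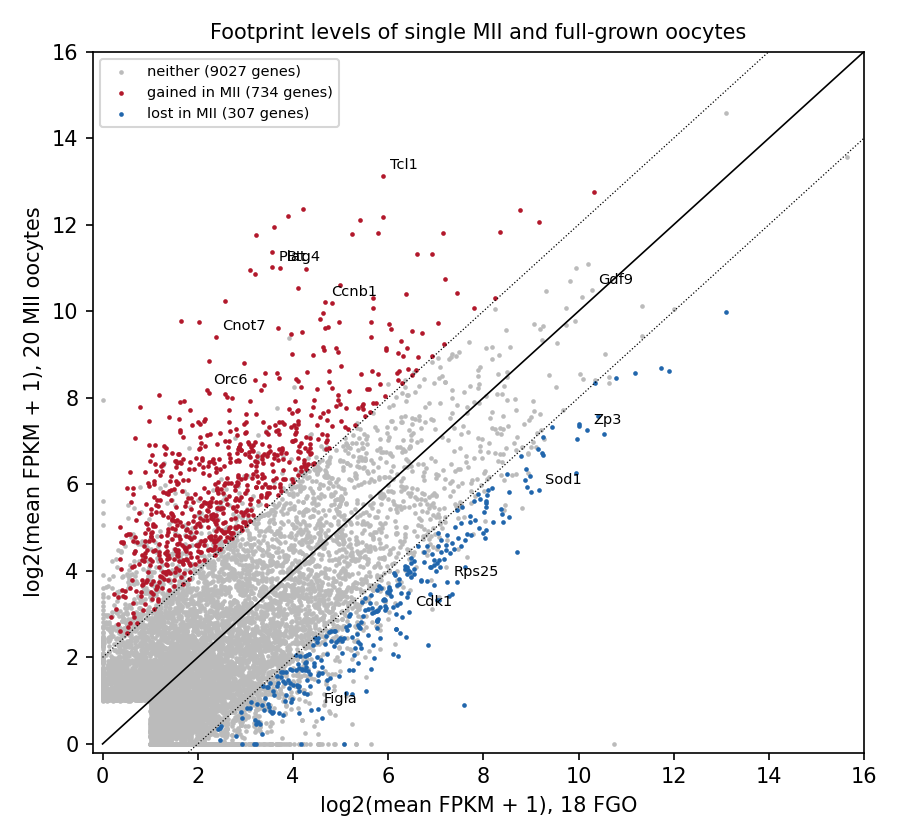
Mean footprint level of each of the 10068 genes in 20 MII oocytes (vertical axis) against 18 FGO (horizontal axis), both as log2(mean FPKM + 1). The solid line marks equal levels and the dotted lines a log2 ratio of 2 and -2; the 734 gained genes reach far above the upper line, while most of the 307 lost genes lie close to the lower one.

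Gained genes took a large part of the summed footprint FPKM of an MII oocyte, a measure that divides reads by gene length. They held 18.8% to 59.1% of an oocyte's summed FPKM in MII oocytes (median 54.4%), against 2.79% to 6.27% in FGO (median 3.87%), and the lowest MII shares were 18.8% in oocyte 4 and 31.7% in oocyte 2. Lost genes held 0.498% to 14.3% in MII oocytes (median 1.09%), against 15.1% to 25.0% in FGO (median 21.3%). The highest MII shares of lost genes were again those of oocyte 4 and of oocyte 2, at 8.62%, and the other 18 MII oocytes reached at most 1.78%. Of 47 genes that averaged 1000 FPKM or more in MII, 34 were gained, and of 27 such genes in FGO, 11 were lost.

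**Figure D2:**
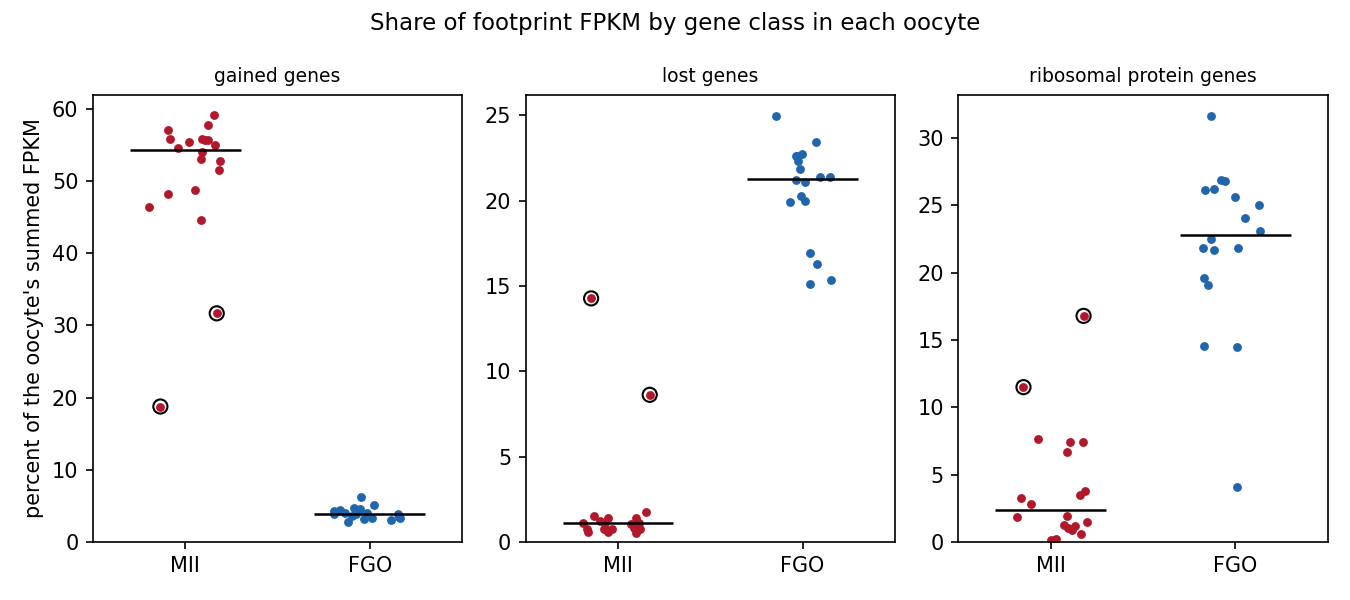
Share of each oocyte's summed footprint FPKM, in percent, held by the gained genes, the lost genes and the cytosolic ribosomal protein genes, in 20 MII oocytes (left in each panel) and 18 FGO. Horizontal lines mark medians (54.4% in MII oocytes and 3.87% in FGO for gained genes) and circles mark MII oocytes 2 and 4, which lie between the other MII oocytes and FGO for gained and lost genes.

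Zeros were unevenly spread between gained and lost genes. Of the 734 gained genes 621 were above 0 in all 20 MII oocytes, and a gained gene was above 0 in a median of 15 FGO. Of the 307 lost genes 281 were above 0 in all 18 FGO, a lost gene was above 0 in a median of 7 MII oocytes, and 226 were at 0 in at least 10 of them. Among genes averaging 20 FPKM or more in MII, the median coefficient of variation between MII oocytes was 0.557 over 631 gained genes and 0.833 over 1081 genes neither gained nor lost. The rule on pairs favours genes with few zeros and little spread in the higher stage. These contrasts thus follow in part from the choice of genes.

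FPKM are relative to each library, and the counts move with the scaling. The median log2 ratio of all 10068 genes was -0.26, and became -0.57 when every oocyte was given the same summed FPKM, -1.17 after median scaling on the 600 genes above 0 in all 38 oocytes, and -0.16 after quantile normalization. Gains made up 70.5% of calls as deposited, 51.6% with equal sums, 25.5% after median scaling and 55.0% after quantile normalization. Of the 307 lost genes, 307 were also lost with equal sums, 307 after median scaling and 304 after quantile normalization, and of the 734 gained genes 647, 395 and 663 were also gained. No gained gene was lost under any of these scalings.

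The loss calls also moved when the oocytes were limited to a shared range of depth. FGO reached the greater depths. Over the 12 MII oocytes and 10 FGO of 35275 to 86249 recovered reads, the shared depth range, the median log2 ratio of all genes was 0.66, with 1199 genes gained and 54 lost. Of the original calls 725 gained genes and 46 lost genes were among them. Limiting depth left the sums unequal, at 240136 to 598538 summed FPKM in the 12 MII oocytes and 76465 to 266983 in the 10 FGO. MII oocytes 2 and 4, which lay nearer FGO, were among the 12 and so weighed more in the rule on pairs than among all 20. Whether depth, sums or these 2 oocytes moved the calls was not tested. When the 12 MII oocytes and 10 FGO were also given equal sums, the median was -0.61. There 715 genes were gained and 472 lost, with 628 and 285 of the original calls among them. In the following, lists are described by their gained and lost members as deposited. Counts after median scaling, the scaling that moved the calls most towards losses, and in the shared depth range, which moved them towards gains, are given beside them for most lists.

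Factors that shorten tails and remove the cap stood among the most gained genes. Of 33 measured genes for CCR4-NOT and PAN deadenylases and decapping, 9 were gained and none lost, and after median scaling 6 were gained and 1 lost; their median log2 ratio of 0.92 became -0.38. The shared depth range gave 12 gained and 0 lost. Btg4, the adaptor that links CCR4-NOT to mRNA, had 404 to 3286 FPKM in MII oocytes (median 2041) and 0 to 79.4 FPKM in FGO (median 2.94), a log2 ratio of 7.27. Cnot7, a catalytic deadenylase subunit, had 133.5 to 1311 FPKM in MII oocytes (median 728) and 0 to 16.7 FPKM in FGO (median 2.43), a log2 ratio of 7.04. Dcp1a, an activator of the decapping enzyme, had 114 to 818 FPKM in MII oocytes (median 492) and 0 to 20.4 FPKM in FGO (median 1.46), a log2 ratio of 6.61. In all 3 genes every MII oocyte lay above every FGO. Pan2, the catalytic subunit of the PAN deadenylase, was likewise without overlap, at 21.9 to 147 FPKM in MII oocytes (median 89.8) and 0 to 6.90 FPKM in FGO (median 0.457).

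Several genes that hold the egg at metaphase were gained, within a list that had about as many members below 0 as above it. Among 31 genes of metaphase II arrest and the anaphase-promoting complex, the ubiquitin ligase whose inhibition keeps the egg arrested, 8 were gained and 3 lost, against 7 and 8 after median scaling and 8 and 1 in the shared depth range. The list's median log2 ratio was -0.01, with 15 members above 0 and 16 below. Mos, the kinase that starts the MAPK cascade of the arrest, had 131 to 1011 FPKM in MII oocytes (median 519) and 0 to 35.6 FPKM in FGO (median 12.1), a log2 ratio of 5.03. Fbxo43 (Emi2), the inhibitor of the anaphase-promoting complex in eggs, had 17.4 to 169 FPKM in MII oocytes (median 79.9) and 0 to 12.7 FPKM in FGO (median 0.570). Cdc20, an activator of that complex, had 43.5 to 305 FPKM in MII oocytes (median 183) and 0 to 12.7 FPKM in FGO (median 1.55). In these 3 genes too every MII oocyte lay above every FGO. The lost members were Mapk3 (ERK1) with a log2 ratio of -3.09, Fzr1 (Cdh1), the other activator, with -2.80, and Camk2g, a calmodulin kinase that acts at egg activation, with -2.50. Without MII oocytes 2 and 4 they stood at -3.83, -3.86 and -3.01.

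Some cyclins were gained, while their kinase Cdk1 was lost. Of 28 cyclins, Cdk1 and regulators, 6 were gained and 3 lost, against 3 and 4 after median scaling and 7 and 0 in the shared depth range. Ccnb1, the B-type cyclin of M phase, had 451 to 2158 FPKM in MII oocytes (median 1128) and 3.80 to 88.4 FPKM in FGO (median 18.7), with no overlap and a log2 ratio of 5.53. Cks1b, a small partner of the kinase, had a log2 ratio of 4.91, Ccna2, the A-type cyclin, 3.34, and Wee2, the oocyte kinase that inhibits Cdk1, 3.02. Cdk1 itself was above 0 in 6 of 20 MII oocytes and in all 18 FGO, with 0 to 68.0 FPKM in MII oocytes (median 0) and 13.5 to 282 FPKM in FGO (median 77.7). Its log2 ratio was -3.39, and -5.17 without MII oocytes 2 and 4. Cdc25b, the phosphatase that activates Cdk1 at the resumption of meiosis, stood at -2.73 (-3.63 without these oocytes), and Ensa, an inhibitor of the opposing phosphatase, at -2.42 (-4.30).

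Some spindle and chromosome genes were gained and 1 was lost, while most members of these lists were called neither. Of 33 kinetochore and centromere genes 7 were gained, of 26 kinesins 6, of 23 cohesin and condensin genes 4 and of 15 checkpoint genes 3, with none lost. Of 26 genes of Aurora and Polo kinases and spindle assembly 5 were gained and 1 lost. After median scaling these 5 lists gave 4 gained and 3 lost, 1 and 2, 3 and 2, 3 and 2, and 5 and 4, in the same order, and in the shared depth range 11, 9, 8, 4 and 8 were gained and none lost. The median log2 ratios as deposited were -0.12, -0.02, 0.10, -0.48 and 0.29, and 10 of the 15 checkpoint genes lay below 0. Bub1b, a checkpoint kinase at kinetochores, had 163 to 1296 FPKM in MII oocytes (median 854) and 0 to 40.0 FPKM in FGO (median 8.34), a log2 ratio of 5.92. Mad2l1, the checkpoint protein that binds Cdc20, had 68.0 to 672 FPKM in MII oocytes (median 337) and 4.11 to 53.4 FPKM in FGO (median 25.7). Both were without overlap. Nuf2 and Ndc80, partners in the complex that binds microtubules, had log2 ratios of 4.04 and 3.01. Cep55 and Prc1, both used in cytokinesis, stood at 5.19 and 4.27, and Kif18a, a kinesin that dampens chromosome movements, at 3.35. The lost gene was Birc5 (survivin), of the chromosomal passenger complex, with 0 to 631 FPKM in MII oocytes (median 31.3) and 49.8 to 1290.2 FPKM in FGO (median 477); its log2 ratio of -2.54 was -3.64 without MII oocytes 2 and 4. Its partner Cdca8 (borealin) was gained, with 44.9 to 407 FPKM in MII oocytes (median 211) and 0 to 50.2 FPKM in FGO (median 7.09).

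Some replication factors, put to use after fertilization, were gained at MII. Of 38 origin licensing and replication genes 9 were gained and none lost, against 6 gained and 3 lost with equal sums and 4 gained and 8 lost after median scaling; the median log2 ratio of 0.52 became 0.23 and -0.60. As deposited 21 members lay above 0 and 17 below, and the shared depth range gave 11 gained and 0 lost. Orc6, a subunit of the origin recognition complex, had 35.6 to 505 FPKM in MII oocytes (median 271) and 0 to 25.4 FPKM in FGO (median 0), with no overlap and a log2 ratio of 5.97. Gmnn (geminin), the inhibitor of licensing, stood at 3.61, Mcm4, of the replicative helicase, at 3.52, and Cdc45, its partner, at 3.44. Among 57 DNA repair genes 6 were gained and none lost, against 1 gained and 4 lost after median scaling and 8 and 0 in the shared depth range, with Palb2, a BRCA2 partner, at 3.01 and Msh6, of mismatch repair, at 2.80.

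Among chromatin regulators, Polycomb genes had the largest gained share. Of 24 Polycomb and H3K27 genes 9 were gained, or 37.5%, and none lost, also after median scaling, which left 6 gained. Cbx2, a reader of the H3K27 mark, had 32.1 to 191 FPKM in MII oocytes (median 83.3) and 0 to 10.3 FPKM in FGO (median 1.16), a log2 ratio of 4.88. Bmi1, of Polycomb complex 1, had 43.1 to 294 FPKM in MII oocytes (median 135) and 0 to 32.3 FPKM in FGO (median 1.79), a log2 ratio of 4.34. Every MII oocyte lay above every FGO in both genes. Eed, of Polycomb complex 2, stood at 4.15. Tet3, the oxidase that acts on methylated cytosine in the zygote, had 27.6 to 213 FPKM in MII oocytes (median 116) and 0 to 18.8 FPKM in FGO (median 0.960), with no overlap and a log2 ratio of 4.79. Dnmt1, the maintenance methyltransferase, showed no such order, with 4.05 to 252 FPKM in MII oocytes (median 98.6) and 8.04 to 624 FPKM in FGO (median 151) and FGO higher in 58.1% of pairs. Of 162 histone, chaperone and remodeler genes 16 were gained and none lost, and after median scaling 6 were gained and 11 lost, against 46 and 0 in the shared depth range. H1f0, a linker histone, stood at 5.19. H3f3b, which encodes histone H3.3, had 474 to 3426 FPKM in MII oocytes (median 1809) and 34.9 to 449.6 FPKM in FGO (median 119), and H1foo, the oocyte linker histone, had 1642 to 7182 FPKM in MII oocytes (median 4462) and 92.0 to 1956 FPKM in FGO (median 468). Copies of clustered histone genes are close in sequence, so reads may be shared between copies.

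A pair of oocyte gene families was gained to high levels, and other oocyte families mostly were not. All 5 Obox homeobox genes measured were gained. Obox1 had 1129 to 7167 FPKM in MII oocytes (median 3465) and 8.29 to 199.9 FPKM in FGO (median 20.8), a log2 ratio of 6.53, and Obox3, a homeobox gene that acts at zygotic genome activation in mouse, had 74.6 to 381 FPKM in MII oocytes (median 250.4) and 0 to 10.5 FPKM in FGO (median 1.27), a log2 ratio of 6.22. Of 11 Tcl1, Omt2 and Oosp genes 10 were gained and 1 lost. Tcl1, an Akt co-activator, had 2382 to 16265 FPKM in MII oocytes (median 10502) and 0 to 227 FPKM in FGO (median 46.5), a log2 ratio of 7.24. No overlap was seen in these 3 genes. Oosp1, an oocyte secreted protein, stood at 6.70, and Rfpl4, an oocyte RING finger gene, at 6.29. Oosp2 was the lost member, at -2.28, and -2.82 without MII oocytes 2 and 4. These families hold near-identical copies, so values of single members are uncertain. Obox3 mRNA measured only 0.513 and 0.558 FPKM in the Btg4 Het oocytes, beside Het footprints of 718, 0 and 538 FPKM. Whether reads of other copies gave its footprints was not tested. Of 12 oocyte Oas1 and Oog genes, by contrast, 2 were gained and none lost, 4 lay above 0 and 8 below, and their median log2 ratio was -0.48. They gave 1 gained and 5 lost after median scaling and 3 and 0 in the shared depth range.

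RNA-binding regulators divided. Of 41 such genes 4 were gained and 3 lost, against 4 and 12 after median scaling and 6 and 2 in the shared depth range. Dazl, which promotes translation of stored mRNA in maturing oocytes, had 54.5 to 288 FPKM in MII oocytes (median 142) and 0 to 27.0 FPKM in FGO (median 6.53), with no overlap and a log2 ratio of 4.18. Ptbp1, a splicing repressor, stood at 3.83, Lin28a, which blocks let-7 processing, at 3.74, and Ythdf3, a reader of methylated adenosine, at 3.58. The lost members were Ybx2 (MSY2), a packaging protein of stored mRNA, Fxr2, a relative of the fragile X protein, and Eif4enif1 (4E-T), a partner of the cap-binding protein. Ybx2 had 0 to 79.3 FPKM in MII oocytes (median 5.67) and 13.4 to 364 FPKM in FGO (median 71.1), a log2 ratio of -3.41 (-4.34 without MII oocytes 2 and 4), Fxr2 stood at -3.94 (-5.06) and Eif4enif1 at -2.65 (-3.69). Poly(A) factors divided likewise, with 4 gained and 3 lost of 34, against 2 and 8 after median scaling and 6 and 0 in the shared depth range. Pabpn1l, a poly(A)-binding protein of the oocyte, was gained at 4.48 (5.30 without FGO 3). Pabpc1l, the embryonic poly(A)-binding protein, was lost at -2.67 (-3.69 without MII oocytes 2 and 4), as was Paip2, an inhibitor of poly(A)-binding protein, at -2.80 (-4.46).

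**Figure D3:**
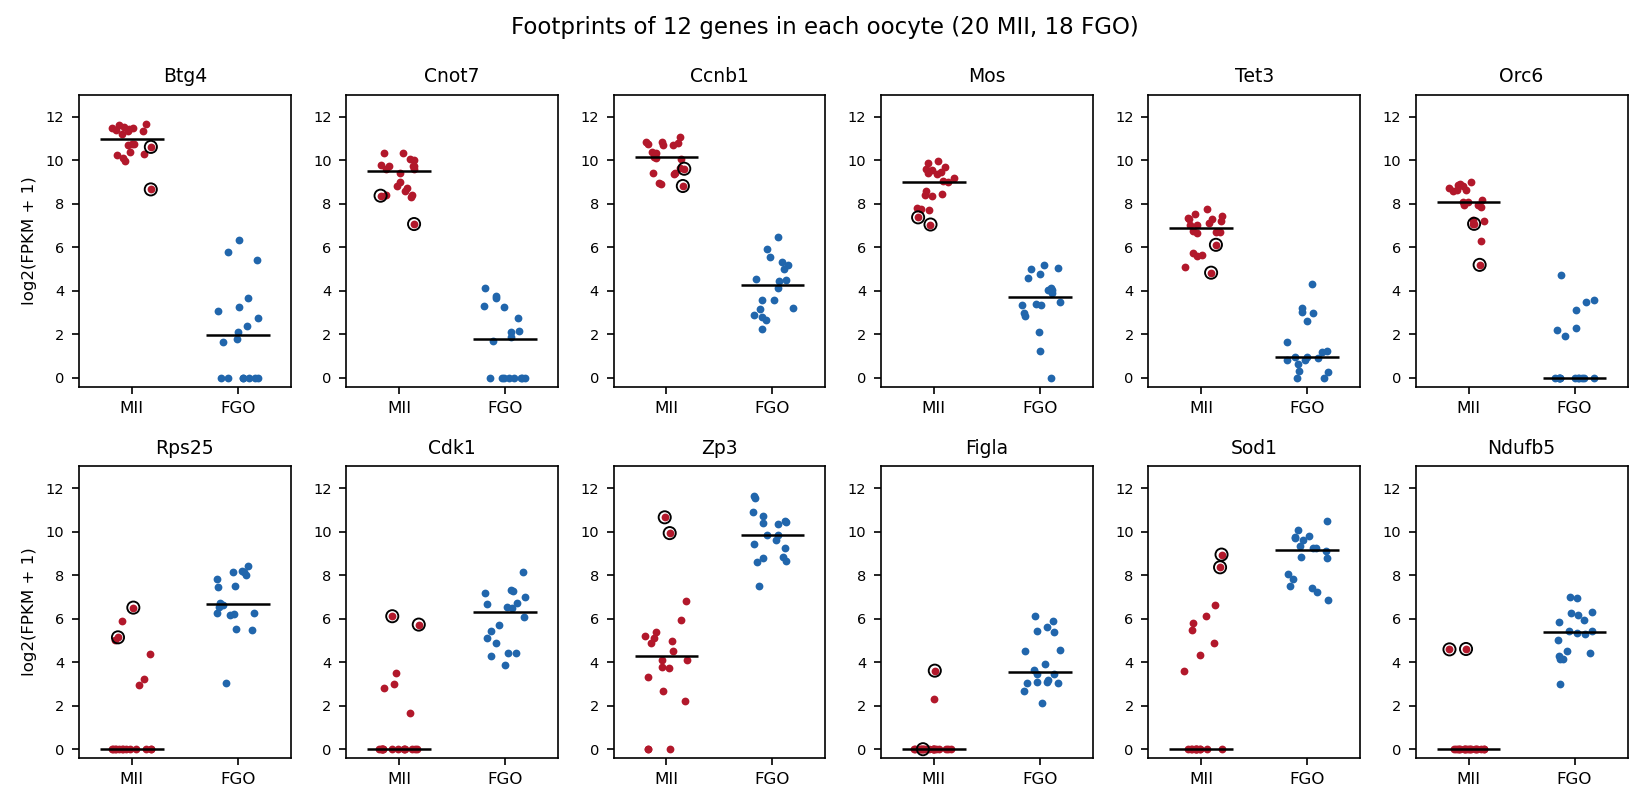
Footprint level, log2(FPKM + 1), of 6 gained genes (upper row) and 6 lost genes (lower row) in each of 20 MII oocytes and 18 FGO; horizontal lines mark medians and circles mark MII oocytes 2 and 4. The 6 gained genes show no overlap of the stages, while in the lost genes the median MII oocyte is at 0 except for Zp3 and oocytes 2 and 4 often lie within the range of FGO.

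Transporters and lipid genes were gained in shares near the 7.29% of all genes. Of 111 solute carriers 10 were gained, or 9.01%, and none lost, against 7 gained and 4 lost after median scaling and 13 and 0 in the shared depth range. Slc23a2, a vitamin C transporter, had 29.4 to 442 FPKM in MII oocytes (median 225) and 0 to 6.41 FPKM in FGO (median 1.85), with no overlap and a log2 ratio of 6.29. Slc7a11, which imports cystine for glutathione synthesis, stood at 3.57. Txnip, an inhibitor of thioredoxin, had 213 to 1394 FPKM in MII oocytes (median 755) and 2.68 to 45.8 FPKM in FGO (median 15.8), again without overlap. Of 29 genes of cholesterol and lipid synthesis 3 were gained, or 10.3%, and 1 lost, with Idi1 and Sc5d of the sterol pathway at 4.63 and 4.14. Of 98 genes for RNA polymerases and general transcription factors 13 were gained, or 13.3%, and 5 lost, against 6 and 20 after median scaling and 20 and 0 in the shared depth range. Med31, a Mediator subunit, stood at 5.37, while Polr2i, an RNA polymerase II subunit, stood at -3.71 (-3.84 without MII oocytes 2 and 4).

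The gained genes of ranks 11 to 30 also held less studied names. Mbd3l2, related to a methyl-CpG-binding protein, had 34.4 to 611 FPKM in MII oocytes (median 209.8) and 0 to 5.67 FPKM in FGO (median 0), a log2 ratio of 6.99. The genes 7420426K07Rik, AA414768 and E330034G19Rik had log2 ratios of 6.86, 6.49 and 6.03. Obox5 stood at 6.42, Tmem128, a transmembrane protein, at 6.39, C2cd5, of glucose transporter traffic, at 6.16, Afap1l2, an actin filament-associated protein, at 5.93, and Rchy1, a ubiquitin ligase, at 5.90. All were higher in every MII oocyte than in any FGO. AA414768 mRNA, however, measured only 0.371 and 1.05 FPKM in the Btg4 Het oocytes, beside Het footprints of 452, 0 and 334 FPKM. The source of its footprints was not tested. Of the 734 gained genes 216 were in at least 1 of the 58 lists and 518 in none.

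Cytosolic ribosomal proteins supplied 35 of the 307 lost genes. Of 54 large subunit genes 18 were lost and none gained, and of 32 small subunit genes 17 were lost and 1 gained. The median log2 ratio was -2.08 and -2.36 in these lists and -0.26 over all genes. With equal sums the medians were -2.40 and -2.76 beside -0.57 for all genes, and 29 and 23 members were lost. Every one of these loss calls ended in the shared depth range, where 0 large and 0 small subunit genes were lost and none gained, with medians of -0.71 and -1.02 beside 0.66 for all genes. With equal sums in that range 19 and 19 were lost, and the medians were -1.91 and -2.28 beside -0.61. Rps25, of the small subunit, was above 0 in 7 of 20 MII oocytes and had 0 to 89.8 FPKM in MII oocytes (median 0) and 7.11 to 344 FPKM in FGO (median 99.5), a log2 ratio of -3.49 (-4.26 without MII oocytes 2 and 4). Rpl38, of the large subunit, was above 0 in 7 MII oocytes and 17 FGO and had 0 to 531 FPKM in MII oocytes (median 0) and 0 to 2358 FPKM in FGO (median 1073), a log2 ratio of -3.68 (-4.78). Rpl35, of the same subunit, was above 0 in 12 MII oocytes and had 0 to 276 FPKM in MII oocytes (median 4.79) and 55.0 to 776 FPKM in FGO (median 377), a log2 ratio of -3.29 (-4.39). Most MII oocytes thus listed little or nothing for genes that nearly every FGO listed. Rpl41, the ribosomal protein gene of the highest level, was not called, with 0 to 54998 FPKM in MII oocytes (median 8575) and 442 to 135945 FPKM in FGO (median 39193) and 85.8% of pairs in order. The gained gene, Rps27l, is a stress-induced relative of Rps27 and was above 0 in 18 MII oocytes; it had 90% of pairs in order and was not gained without MII oocytes 2 and 4. Many ribosomal protein genes have processed pseudogenes that could take or lend reads.

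Transcripts of ribosomal proteins typically begin with a C and a run of pyrimidines, the TOP tract through which their translation is tuned. The windows below show 10 bases before and 20 bases from the RefSeq start on (GRCm38.p6, gene strand), for the lost ribosomal protein genes of largest change that have 1 annotated start and a tract, and for 2 of the most gained genes with 1 annotated start. Capitals mark a C followed by at least 4 bases that are C or T, beginning within 3 bases of the start.
Rpl38 (lost, chr11:114668570-114668599, + strand): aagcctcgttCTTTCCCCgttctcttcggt
Rpl35 (lost, chr2:39005112-39005141, - strand): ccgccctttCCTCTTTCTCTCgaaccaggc
Rps9 (lost, chr7:3704031-3704060, + strand): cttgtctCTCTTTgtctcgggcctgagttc
Rps10 (lost, chr17:27635225-27635254, - strand): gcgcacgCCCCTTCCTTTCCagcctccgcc
Omt2b (gained, chr9:78328020-78328049, + strand): ctggaaccatagtgtgccttgggggtgggg
Tcl1b1 (gained, chr12:105159694-105159723, + strand): tgagttctcagtcattcccctgtctgaccg

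A tract by this rule, read on the gene strand, was present at 21 of 55 ribosomal protein genes with 1 annotated start (38.2%). Among the lost ones it was present at 8 of 20 (40%), a share near that of all ribosomal protein genes. The tract was present at 18 of 171 lost genes outside ribosome and respiratory chain (10.5%), at 66 of 467 gained genes (14.1%), at 814 of 6402 genes measured (12.7%) and at 2600 of 22862 RefSeq genes with 1 start (11.4%). Outside ribosome and respiratory chain, lost genes held the tract in a share near that of all genes.

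Some respiratory chain genes were lost as well. Of 43 complex I genes 6 were lost, of 55 genes of complexes II to V 15 were lost, and none was gained. The median log2 ratios were -1.73 and -2.04, beside -0.26 for all genes, and with equal sums 15 and 27 members were lost. In the shared depth range 1 complex I gene was lost and 1 gained, and 4 genes of complexes II to V were lost, with medians of -0.997 and -0.93 beside 0.66 for all genes. Equal sums in that range gave 11 and 22 lost. Ndufb5, of complex I, was above 0 in 2 of 20 MII oocytes and had 0 to 23.3 FPKM in MII oocytes (median 0) and 6.98 to 127 FPKM in FGO (median 40.8), a log2 ratio of -3.92 (-5.65 without MII oocytes 2 and 4). Atp5h, of ATP synthase, was above 0 in 9 MII oocytes and had 0 to 124 FPKM in MII oocytes (median 0) and 37.0 to 389.5 FPKM in FGO (median 139), a log2 ratio of -3.70 (-5.14). Atp5e, of the same enzyme, was above 0 in 6 MII oocytes and had 0 to 3556 FPKM in MII oocytes (median 0) and 386 to 6870.4 FPKM in FGO (median 2913), a log2 ratio of -3.05 (-4.17). Not every gene of the list followed, and Ndufa4, listed under complex I, had 0 to 2340.2 FPKM in MII oocytes (median 1125) and 174 to 2422 FPKM in FGO (median 711). Mitochondrial ribosomal proteins gave 1 lost and 1 gained of 78. Equal sums gave 9 lost, the shared depth range 0, and equal sums in that range 3.

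Metabolic and redox enzymes were lost in smaller numbers. These calls too mostly ended in the shared depth range, where equal sums again gave more losses. Of 45 genes of glycolysis, pyruvate use and the TCA cycle 5 were lost and none gained, against 0 lost and 1 gained in that range, with Dlst and Ogdh, of the oxoglutarate dehydrogenase complex, at -2.69 and -2.38 (-3.41 and -3.03 without MII oocytes 2 and 4). Of 55 peroxiredoxin, glutathione and thioredoxin genes 5 were lost and 1, Txnip, gained, against 1 lost and 2 gained in that range. With equal sums in that range these lists gave 7 lost and 0 gained, and 7 and 1, in the same order. Sod1, the cytosolic superoxide dismutase, was above 0 in 9 MII oocytes and had 0 to 491 FPKM in MII oocytes (median 0) and 116 to 1434 FPKM in FGO (median 573), a log2 ratio of -3.31 (-4.92). Glrx3, a glutaredoxin of iron-sulfur cluster handling, stood at -3.25 (-3.48), and Gstt2, a glutathione transferase, at -3.12 (-3.80).

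Genes of the growing oocyte were among the lost. Of 12 zona pellucida genes and oocyte transcription factors 4 were lost and 1 gained, against 1 and 2 in the shared depth range and 5 and 0 with equal sums there. Zp3, a zona protein that binds sperm, had 0 to 1610.1 FPKM in MII oocytes (median 18.9) and 178 to 3126 FPKM in FGO (median 923), a log2 ratio of -2.94 (-5.52 without MII oocytes 2 and 4). Zp2, its partner in the zona, had 4.29 to 1465 FPKM in MII oocytes (median 32.2) and 65.8 to 3350.1 FPKM in FGO (median 859), a log2 ratio of -2.62 (-4.33). Figla, the transcription factor that drives the zona genes, was above 0 in 2 MII oocytes and had 0 to 11.2 FPKM in MII oocytes (median 0) and 3.35 to 68.9 FPKM in FGO (median 10.8), a log2 ratio of -3.70 (-4.23). Lhx8, a factor of oocyte growth, stood at -2.17 (-3.997), and Sall4, a zinc finger factor, was gained at 2.46. Of 17 genes of oocyte to follicle signals and meiotic arrest 3 were lost, against 0 in the shared depth range and 3 with equal sums there. Among the lost was Bmp15, a growth factor for granulosa cells, at -2.52 (-3.17). Its partner Gdf9 was called neither, with 519.8 to 2252 FPKM in MII oocytes (median 1499) and 133 to 5003 FPKM in FGO (median 798).

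Maternal effect genes did not move as a block. In the list of the subcortical maternal complex and its relatives, 3 of 20 genes were gained and 2 lost, against 3 and 6 with equal sums, 2 and 9 after median scaling and 3 and 0 in the shared depth range. Ooep, of the complex, had 13.9 to 3418 FPKM in MII oocytes (median 152) and 524 to 5584 FPKM in FGO (median 2034), a log2 ratio of -2.60 (-4.14 without MII oocytes 2 and 4), and Tle6, of the same complex, stood at -2.33 (-2.95). Zbed3, also of the complex, was gained, with 835 to 7849 FPKM in MII oocytes (median 3642) and 23.5 to 587 FPKM in FGO (median 92.9), no overlap and a log2 ratio of 4.67. Trim28 and Zfp57, which keep imprints methylated, were gained at 3.02 and 3.67. None of 11 Nlrp genes was called as deposited, while 3 were lost after median scaling and 5 gained in the shared depth range, and their median log2 ratio was -0.15. Nlrp5, of the complex, had 7.73 to 612 FPKM in MII oocytes (median 53.7) and 26.4 to 1978 FPKM in FGO (median 394) and 82.2% of pairs in order. In the F-box list 6 of 69 were gained and 4 lost, against 3 gained and 14 lost after median scaling and 13 and 0 in the shared depth range. The lost members as deposited were all Fbxw genes, Fbxw21, Fbxw15, Fbxw13 and Fbxw24, at -2.72, -2.33, -2.30 and -2.13 (-3.98, -3.08, -3.001 and -2.995).

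Several housekeeping lists held more lost than gained members as deposited, and the reverse in the shared depth range. Proteasome genes gave 6 lost and 3 gained of 46, chaperones 8 and 3 of 74, secretory pathway genes 7 and 4 of 61, initiation factors 5 and 2 of 48 and actin regulators 6 and 3 of 68. In the shared depth range these lists gave 0 lost and 6 gained, 1 and 6, 1 and 6, 0 and 7, and 1 and 5, in the same order. With equal sums in that range more were lost again, at 9 lost and 2 gained, 12 and 2, 8 and 4, 5 and 1, and 8 and 3. Initiation factors also gave 2 lost and 4 gained over the oocytes with no hemoglobin gene above 0. Psmd6, of the proteasome cap, stood at -2.76 (-4.32 without MII oocytes 2 and 4), and Pomp, a proteasome assembly factor, at -2.54 (-3.31). Calr and Pdia3, which fold glycoproteins in the endoplasmic reticulum, stood at -2.78 (-3.87) and -2.89 (-4.75). Eif1ax, an initiation factor, stood at -2.39 (-3.96). Eef1a1, the elongation factor that delivers tRNA, had 0 to 259 FPKM in MII oocytes (median 20.8) and 50.0 to 614 FPKM in FGO (median 249.9), a log2 ratio of -2.49 (-3.19). Among actin regulators Tmsb10, which sequesters actin monomers, had 0 to 10936 FPKM in MII oocytes (median 146) and 339.6 to 21888 FPKM in FGO (median 6635), a log2 ratio of -3.13 (-5.32), while Spire1 and Fmn2, nucleators of the actin mesh that moves the meiotic spindle, were gained at 3.16 and 2.52.

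The other lost genes of ranks 11 to 30 were single members of many functions. Gpc4, a cell surface glypican, was above 0 in 3 MII oocytes and had 0 to 10.1 FPKM in MII oocytes (median 0) and 1.23 to 44.1 FPKM in FGO (median 18.8). Elob (elongin B) was above 0 in 3 MII oocytes and had 0 to 23.1 FPKM in MII oocytes (median 0) and 5.74 to 82.1 FPKM in FGO (median 41.1). Log2 ratios, with those without MII oocytes 2 and 4 in parentheses, were -3.47 (-3.86) for Fam151a, -3.43 (-3.54) for Rgs10, a regulator of G-protein signals, -3.41 (-3.35) for the splicing regulator Rbm5, -3.36 (-4.001) for Creld2 of the endoplasmic reticulum and -3.23 (-4.03) for the seryl-tRNA synthetase Sars. They were -3.17 (-4.14) for Tpd52, -3.12 (-3.29) for Ano10, -3.10 (-3.86) for the mitochondrial protein Alkbh7 and -3.10 (-4.39) for Akap1, which anchors protein kinase A to mitochondria. Fahd2a and Rmdn3 were listed at 0 in all 20 MII oocytes, with medians of 5.68 and 7.23 FPKM in FGO. Of the 307 lost genes 148 were in at least 1 list and 159 in none.

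**Figure D4:**
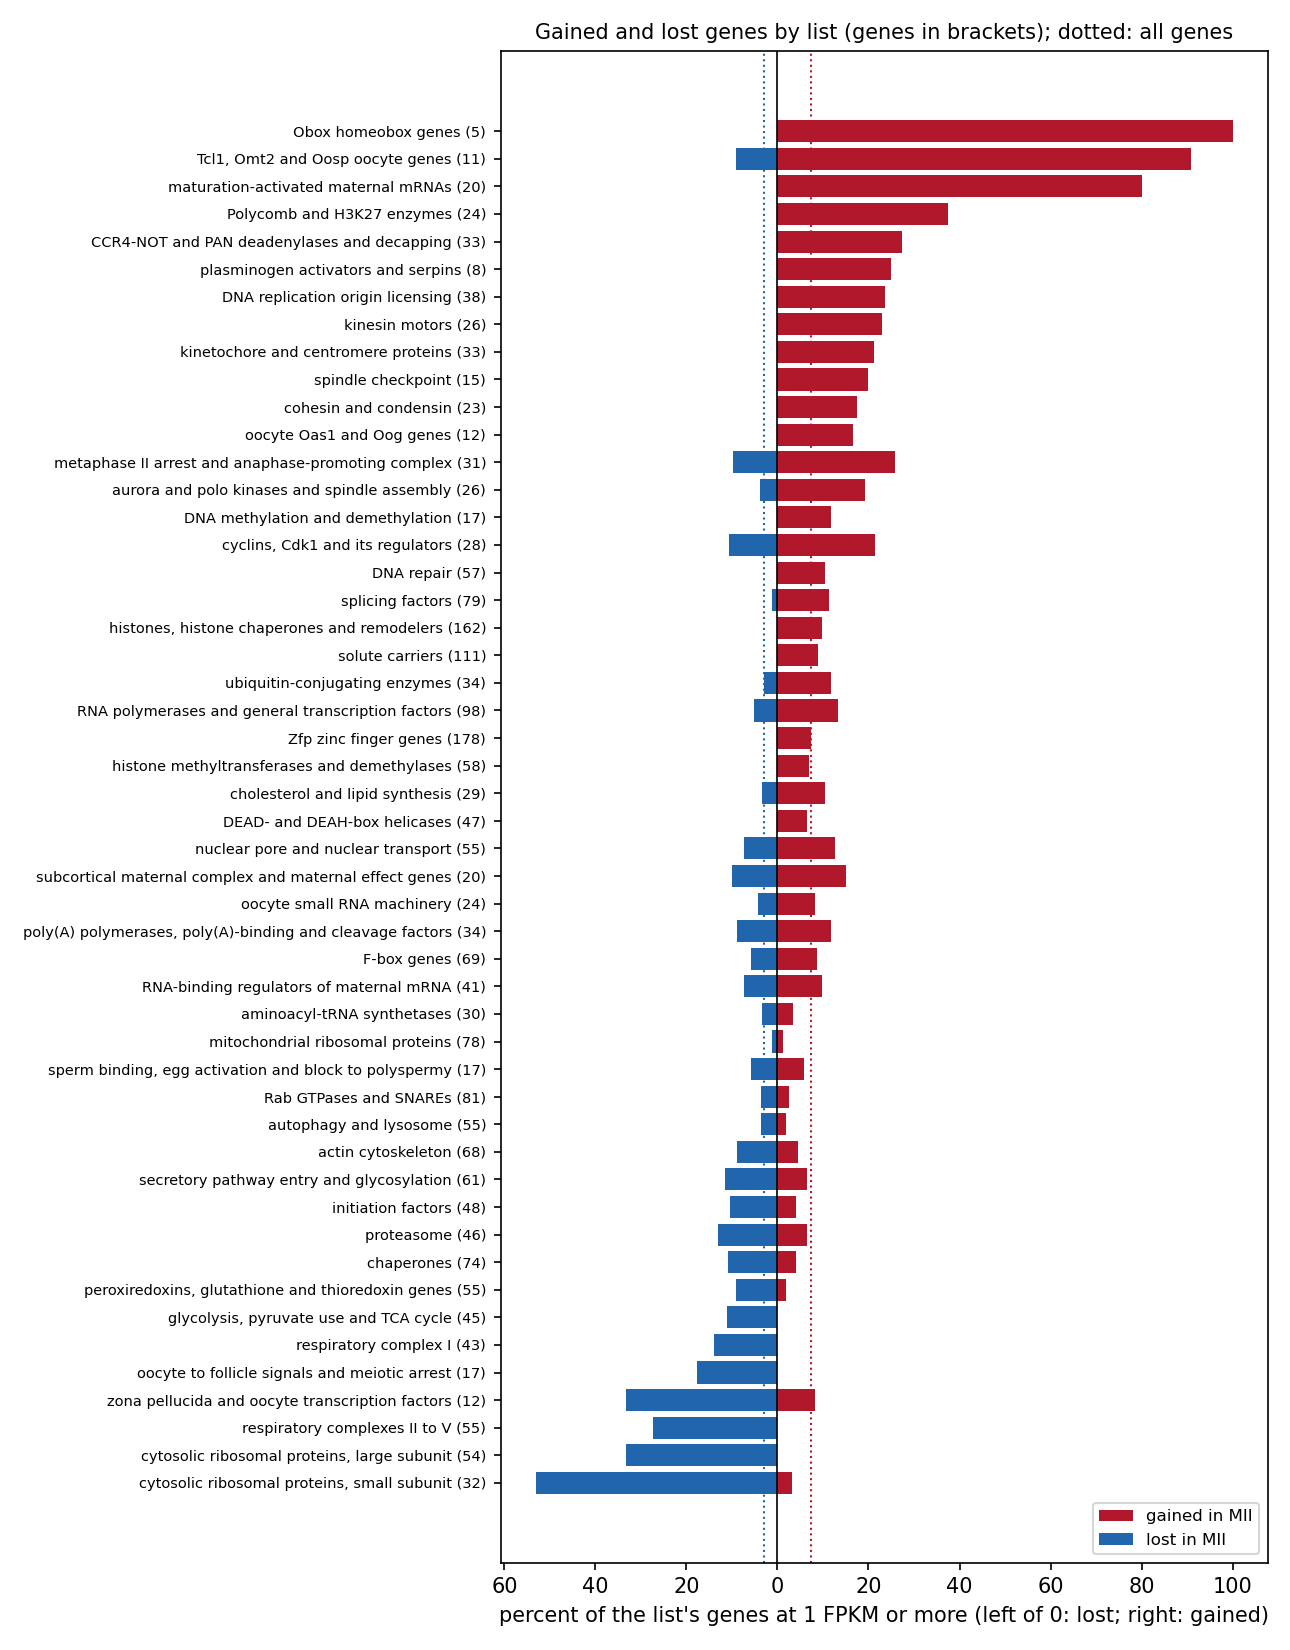
Percent of each list's measured genes that were gained (right of 0) or lost (left of 0) in single MII oocytes against FGO, for lists with at least 5 measured genes and 2 called; the number of measured genes is in brackets and dotted lines mark all genes (7.29% gained, 3.05% lost). As deposited, Obox genes, the Tcl1, Omt2 and Oosp genes and deadenylation genes have large gained shares, and ribosomal protein and zona genes large lost shares. No ribosomal protein gene is lost in the shared depth range, but with equal sums in that range 19 large and 19 small subunit genes are.

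Some large lists had gained shares near that of all genes, with 13 of 178 Zfp zinc finger genes, 4 of 58 histone methyltransferases and demethylases and 3 of 47 DEAD- and DEAH-box helicases, and none lost. After median scaling they gave 9 gained and 2 lost, 2 and 3, and 0 and 9, and in the shared depth range 20, 8 and 5 gained and none lost, in the same order. Splicing factors gave 9 gained and 1 lost of 79, and nuclear pore and transport genes 7 and 4 of 55. These became 0 and 5, and 5 and 8, after median scaling, and 26 and 1, and 14 and 1, in the shared depth range. Nup62, a channel protein of the pore, was gained at 4.43. In the lists not yet described, gained and lost members numbered 2 and 3 of 81 in Rab GTPases and SNAREs, 1 and 2 of 55 in autophagy and lysosome genes, 1 and 0 of 64 in mitochondrial import genes and carriers, 4 and 1 of 34 in ubiquitin-conjugating enzymes and 1 and 1 of 30 in aminoacyl-tRNA synthetases. They numbered 2 and 1 of 24 in the small RNA machinery, 1 and 1 of 17 in sperm binding and egg activation genes, 1 and 0 of 16 in the Bcl-2 family, 2 and 0 of 8 in plasminogen activators and serpins and 1 and 1 of 3 in zygotic activation genes. A list of mRNAs known for activation during maturation gave 16 gained of 20 and none lost, and was drawn up with results of these oocytes known. Near the thresholds the calls hang on small steps. Thoc2 and Eif2a were the gained genes closest to the threshold and Polg and Heatr5a the nearest outside it, all at a log2 ratio of 2.00. Pex14 and Ubb were the lost genes closest to it, at -2.01, and Prdx2 and Bsg the nearest outside it, at -1.99. Adnp and 1600012H06Rik were measured at a mean of 1.00 FPKM in FGO, and Piwil2 and Stmnd1 stayed out just below.

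Tail lengths, which had no part in choosing the genes, differed between gained and lost genes in opposite ways at the 2 stages. In the wild-type MII library the median tail was 61.0 nt over the 73 gained genes with a value, 32.3 nt over 8 lost genes and 41.7 nt over 143 genes of neither class. In the wild-type FGO library, labelled SN, it was 47.0 nt over 670 gained genes (quartiles 40.5 and 55.0), 63.3 nt over 241 lost genes (quartiles 56.8 and 72.1) and 54.6 nt over 4819 genes of neither class. Gained genes thus had the shorter median tail in FGO and the longer in MII. Of 72 gained genes with a value in both libraries 56 had the longer tail in MII and 16 in FGO, while all 8 lost genes and 106 of 140 genes of neither class had the shorter tail in MII. Tet3 measured 149 nt in MII and 45.9 nt in FGO, Tcl1 103 nt in MII and 41.7 nt in FGO, and Dcp1a 110.3 nt in MII and 38.3 nt in FGO. Btg4 measured 36.9 nt in MII and 29.3 nt in FGO, and Ccnb1 40.4 nt in MII and 45.5 nt in FGO. Among lost genes Bmp15 measured 31.2 nt in MII and 64.1 nt in FGO, and Eif4enif1 24.3 nt in MII and 58.1 nt in FGO. Each stage has 1 tail library and few genes have a value in MII, so no test was made.

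The Btg4 libraries give the same genes in other MII oocytes. Btg4 itself measured 1754 and 2345 FPKM of mRNA in KO oocytes, against 3293 and 4774 FPKM in Het oocytes (limma adjusted p = 0.0889), and 1148, 971 and 907 FPKM of footprints in KO oocytes, against 7009, 6346 and 6134 FPKM in Het oocytes. It was lower in every KO library but not absent, and the labels do not say which part of the gene was deleted. Het footprints, read from other oocytes than those that chose the genes, had medians of 199.7, 200.8 and 165 FPKM over gained genes, 7.11, 0.827 and 0 FPKM over lost genes and 4.73, 2.48 and 2.44 FPKM over all genes measured. The medians hide differences of Het footprint library 2 in single gained genes. It was far below the other Het libraries for some, with Obox1 at 8422, 42.2 and 6209 FPKM and Ccnb1 at 4216, 396 and 2735 FPKM. For others it was above them, with Bub1b at 3017, 3761 and 1973 FPKM. The source of these differences was not tested. Het mRNA had medians of 74.0 and 56.5 FPKM over gained genes, 11.1 and 10.0 FPKM over lost genes and 5.46 and 4.17 FPKM over all. In these libraries fewer oocytes and less RNA per oocyte cannot be told apart.

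KO and Het mRNA was compared with limma on log2(FPKM + 1) over all 8865 genes averaging 1 FPKM or more, with Benjamini-Hochberg adjusted p below 0.05. In KO oocytes 1677 genes were higher, or 18.9%, and 55 lower, or 0.620%. Of 291 lost genes tested 156 were higher in KO oocytes, or 53.6%, and 1 was lower, and of 728 gained genes 6 were higher, or 0.824%, and 15 lower, or 2.06%. The median log2 difference, KO minus Het, was 1.42 over lost genes, -0.64 over gained genes and 0.14 over all genes, and after quantile normalization 1.07, -0.92 and -0.21. Of 34 lost ribosomal protein genes tested 28 were higher in KO oocytes, as were 112 of 236 lost genes outside ribosome and respiratory chain. After quantile normalization 1121 genes were higher and 657 lower, so higher genes made up 63.0% of calls and not 96.8%, and 133 lost genes were higher and 141 gained genes lower. The count of genes lower in KO oocytes, gained genes included, depended on how the replicate numbers were treated and on single libraries. It moved to 22, of them 1 gained gene, without KO library 2, and to 270, of them 105 gained genes, without Het library 2, and with no filter on low values no gained gene was lower.

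Among lost genes, Figla mRNA measured 32.7 and 44.5 FPKM in KO oocytes, against 3.28 and 1.69 FPKM in Het oocytes (limma log2 difference 3.53, SE 0.387, adjusted p = 0.000923). Zp3 mRNA measured 858 and 924 FPKM in KO oocytes, against 66.1 and 103 FPKM in Het oocytes (limma log2 difference 3.42, SE 0.320, adjusted p = 0.000573). Paip2 mRNA measured 552 and 690.2 FPKM in KO oocytes, against 26.2 and 13.7 FPKM in Het oocytes (limma log2 difference 4.95, SE 0.365, adjusted p = 0.000283). Both KO libraries lay above both Het libraries in these 3 genes. Cdk1 mRNA, which was low in all 4 libraries, measured 3.72 and 2.67 FPKM in KO oocytes, against 0.486 and 0.559 FPKM in Het oocytes (limma adjusted p = 0.0131). Bmp15, by contrast, measured 1764 and 1414 FPKM in KO oocytes, against 1361 and 1323 FPKM in Het oocytes (limma adjusted p = 0.611). Among gained genes, Zfp57 mRNA was higher, at 1441 and 1447 FPKM in KO oocytes, against 342 and 357 FPKM in Het oocytes (limma adjusted p = 0.0024). Obox5 mRNA was lower, at 1062 and 1202 FPKM in KO oocytes, against 2162 and 2423 FPKM in Het oocytes (limma adjusted p = 0.0473). Nothing in the labels shows that the Btg4 libraries came from separate animals, so these p-values measure the spread between libraries, which may be technical.

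**Figure D5:**
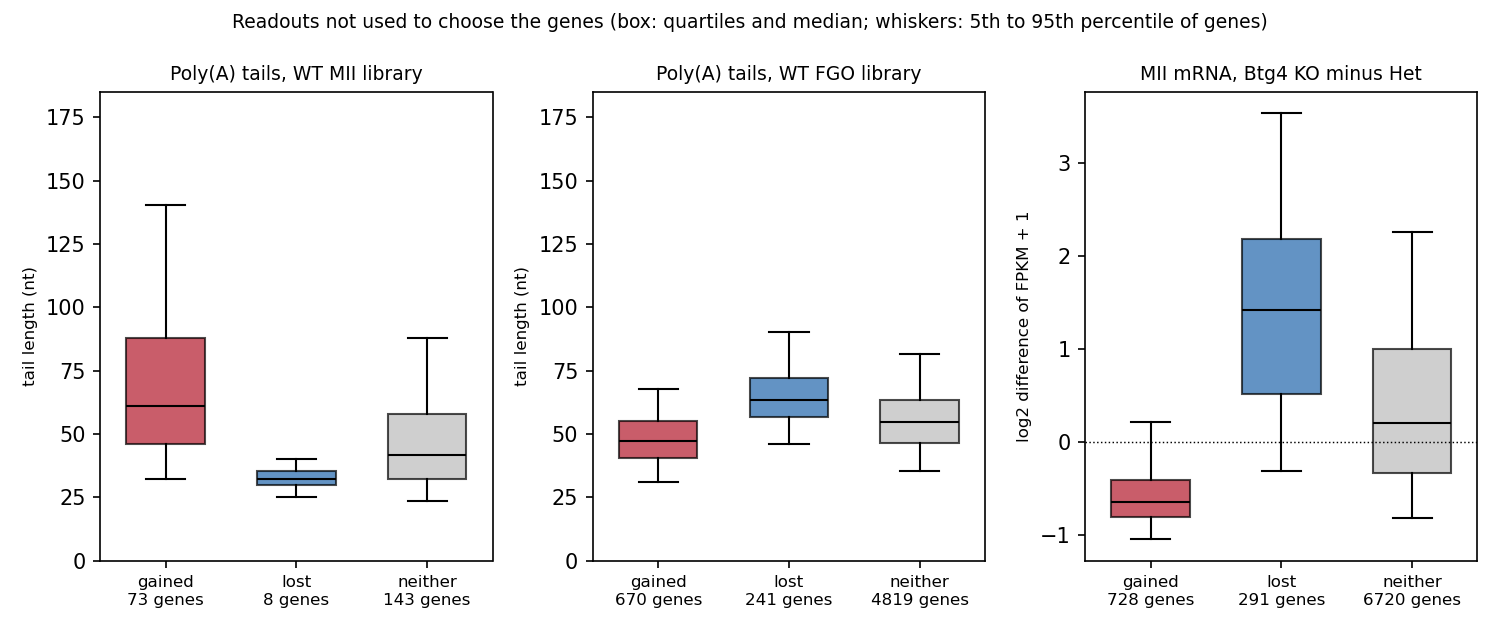
Readouts that did not choose the genes, for gained, lost and other genes: poly(A) tail length (nt) in the wild-type MII library and the wild-type FGO library, and the log2 difference of MII mRNA between Btg4 KO and Het oocytes. Boxes show quartiles and medians over genes and whiskers the 5th to 95th percentile; gained genes have medians of 61.0 nt in MII and 47.0 nt in FGO, and lost genes a median KO minus Het difference of 1.42.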

How the data were processed

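The authors deposited FPKM per gene for footprints and mRNA, and poly(A) tail lengths in nucleotides per gene, where 0 stands for no value. The submitters' processing notes list Trim Galore 0.4.2, cutadapt 1.14, STAR 2.5.3a, Bowtie2 2.2.2 and Cufflinks 2.2.1, and name hg19 beside mm9; the role of each is not stated there. No spike-in is named, so FPKM are relative to each library. A mean over oocytes weights each oocyte equally, and the pseudocount of 1 FPKM understates changes of low genes. Among the Btg4 values, 231 repeated rows were dropped.

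Relative depth came from low FPKM read as whole multiples of 1 read (values below 12 reads, tolerance 0.03 reads). Of the values judged 85.2% were whole, and 9338 genes, holding 37.8% to 64.3% of an oocyte's FPKM, gave reads, so no count model was run. For mRNA and tail libraries the depth is unknown. KO and Het mRNA was fitted with limma 3.58.1 in R 4.3.3 (eBayes with trend, two-sided), genotype only. Calls, limma and the depth scale of a library were tested on simulated data. The recovered reads summed over the 9338 genes were not, and they also depend on the share of FPKM that these genes hold. Other steps used matplotlib 3.10.9, pandas 2.3.3 and numpy 2.4.6 in Python 3.11.15. By symbol, 8026 of the 10068 genes matched a RefSeq start (GRCm38.p6), 6402 of them with 1 start.

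Named genes are ranks 11 to 30 among gained and among lost genes whose ratio moves by less than 1.5 times when any 1 oocyte is left out, up to 4 gained and 4 lost members of each list by size of change, the 3 highest genes of lists without gains or without losses, and those nearest the thresholds. Rps10 and the windows shown were chosen by the rule given beside them. The members, the 58 gene lists and the rules were chosen with earlier results of these data known, and a few list entries matched by name pattern were corrected after the files were seen. Alternatives were other pseudocounts, filters, scalings, thresholds and subsets of oocytes. 1 further start window is not reported here. The other libraries of the series were not analysed here.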

Additional observations from a re-analysis of the deposited data

How the results depend on the processing

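Leaving out each oocyte in turn gave 705 to 786 gained and 271 to 448 lost genes, with 448 lost without MII oocyte 4. Without MII oocytes 2 and 4, 753 genes were gained and 555 lost, among them 306 of the 307 lost genes. The counts of gained and of lost genes were 391 and 115 with a pseudocount of 10 FPKM, 395 and 1154 after median scaling, 719 and 589 after quantile normalization, 654 and 613 with equal sums, 429 and 74 at a log2 ratio of 3, 192 and 0 with all pairs in order, 1234 and 983 with no rule on pairs, 1199 and 54 in the shared depth range, and 715 and 472 in that range with equal sums. The cause of these shifts was not tested. Equal sums, alone and within the depth range, were chosen after seeing the data. A pseudocount of 0.1, a filter at 5 FPKM, no filter, medians over oocytes, a log2 ratio of 1 and the oocytes without hemoglobin kept both counts within 1.5 times. The members changed more than the counts over the 19 MII oocytes and 9 FGO without hemoglobin. Of 831 genes gained there 711 were original calls, and of 343 lost 242 were. Of 16740 values of 310 named genes under alternatives 16367 moved by less than the spread between oocytes. Of these alternatives 38 left out 1 oocyte each, which can move a mean only little. The count therefore says little about the scalings.

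KO and Het mRNA libraries of the same replicate number deviated together from their group means (correlation 0.627 over genes), but with 2 numbers, and labels that name no shared animal or day, this does not show that the numbers pair them. With a replicate block 3033 genes were higher and 1553 lower in KO mRNA, with 216 lost genes higher and 483 gained genes lower. Without a filter 555 were higher and 5 lower, with 79 lost genes higher and 0 gained genes lower. After quantile normalization 657 were lower, of them 141 gained genes, and with a pseudocount of 0.1 FPKM 9 gained genes were lower. Leaving out each library gave 1139 to 1621 genes higher and 22 to 270 lower, with 127 to 162 lost genes higher and 1 to 105 gained genes lower; the lowest counts lower in KO came without KO library 2 and the highest without Het library 2. Each such fit assumes that the lone library varies like the pair.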
